A study of Mus musculus with 4 samples.

Results

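A small set of neutrophils in the bone marrow of myeloma-bearing mice carried the interferon-induced messages Ifit1 and Ifit3. These cells were chosen from their own unique molecular identifier (UMI) counts, 1 UMI standing for 1 captured messenger RNA. A cell was taken when Ifit1 and Ifit3 together had at least 3 UMIs, Csf3r at least 1 and S100a8 at least 5, and when Csf1r, Ccr2, Mki67 and Top2a were all at 0. Of 39743 kept cells, 347 met this rule, and they are called interferon-positive neutrophils here. Their counterparts, called Ifit-zero neutrophils, passed the same gates but had no Ifit1 or Ifit3 UMI, and they numbered 13114. Another 947 cells had 1 or 2 Ifit UMIs and belonged to neither class.

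All 4 mice carried the 5TMM model, in which luciferase-marked 5TGM1 mouse myeloma cells are injected into the bloodstream of C57BL/KawRij mice at 6 weeks of age and settle in the marrow. After 3 weeks, 2 mice received vehicle and 2 mice received 10 mg/kg Purinostat mesylate (PM), a class I/IIb histone deacetylase inhibitor, and bone marrow was taken after 24 h. Red blood cells were lysed, and 1 droplet-based library was made per mouse. The myeloma cells come from 1 cell line, every animal including the controls carries it, and no mouse without myeloma was profiled, so the levels given here are those of a tumor-bearing marrow. The vehicle libraries held 9261 and 7826 kept cells with 85711238 and 69190194 UMIs, and the PM libraries held 13387 and 9269 kept cells with 108776232 and 73651602 UMIs.

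Type I interferons bind the Ifnar1 and Ifnar2 receptor chains, and the signal runs through Jak kinases to Stat proteins and Irf9, which enter the nucleus and switch on interferon-stimulated genes. The products of these genes block viral replication, sense foreign nucleic acid, present antigen and damp the signal itself. Neutrophils are short-lived phagocytes that mature in the marrow, where they make primary granule proteins first, then secondary granule proteins such as lactoferrin, and later the receptors with which they leave for the blood.

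The label of the cells was checked against their markers. Csf3r, the receptor for the growth factor that drives neutrophil production, was at 1222, 886, 1045 and 1069 UMIs per 1000000 UMIs of the summed cells (counts per this number, CPM) in the interferon-positive cells of vehicle 1, vehicle 2, PM 1 and PM 2. S100a8, a calcium-binding protein that fills the neutrophil cytosol, was at 126161, 111041, 119392 and 115355 CPM. Both are gate genes, so these values are set by the rule and check nothing. A UMI of the granule gene Camp, which the gates did not use, was found in 70.1%, 76.0%, 76.1% and 69.2% of the interferon-positive cells, but also in 47.1%, 46.9%, 65.6% and 55.0% of B cells. In cells thinned to 2000 UMIs these shares were 54.8%, 50%, 71.3% and 70.9% against 31.8%, 35.1%, 56.4% and 36.7%, so a Camp UMI alone does not mark a neutrophil. Cxcr2, also outside the gates, set the cells apart more. Its UMIs were found in 98.7%, 92.0%, 97.8% and 95.3% of interferon-positive cells and in 8.76%, 7.24%, 15.9% and 9.03% of B cells. After thinning these shares were 95.9%, 87.5%, 87.1% and 86.0% against 4.27%, 5.48%, 13.9% and 5.60%. Of 16 monocyte and macrophage genes, 3 (C1qb, Ms4a7 and Ace) had no UMI in the 347 cells, and the other 13 had some. Of 12 T and natural killer cell genes, 3 (Cd8a, Klrb1c and Ncr1) had none, and the list, led by Cd3d, summed to 5.37, 152, 23.3 and 6.67 CPM against 17.1, 27.5, 55.6 and 30.4 CPM in Ifit-zero cells, highest in vehicle 2. Some member cells went against the label. A cell of vehicle 2 with 8169 UMIs from 3216 genes had 0.0367% of them in secondary granule genes and 0.0490% in late maturation genes. Other large cells, in vehicle 1, vehicle 2 and PM 1, had 15914, 10162 and 11030 UMIs from 4704, 3208 and 3371 genes. They had 0.547%, 0.531% and 0.716% in secondary granule genes, with 1.04%, 3.80% and 2.22% in late maturation genes. In vehicle 2 all 13 UMIs of Sox4, a gene of immature cells, were in 1 cell. The part of such cells in the results was not tested. Cell barcodes shared by any pair of libraries numbered 18 to 41, and none of the 347 cells had its barcode in another library. A doublet score marked 0, 1, 5 and 0 of them.

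The promoters of the 2 genes that set the gate and of the 2 further marker genes are shown because their windows hold matches to a short motif that was searched in all promoters. RefSeq sequence of GRCm38.p6 is printed for each gene 5′ to 3′ in the direction of transcription, from 170 to 51 bases before the start. Capitals mark matches to GAAANNGAAA on either strand, which on the other strand reads TTTCNNTTTC. Ifit1 lies at chr19:34640719-34640838 on the plus strand, Ifit3 at chr19:34583359-34583478 on the plus strand, Rsad2 at chr12:26456503-26456622 on the minus strand and Isg15 at chr4:156200869-156200988 on the minus strand.
Ifit1: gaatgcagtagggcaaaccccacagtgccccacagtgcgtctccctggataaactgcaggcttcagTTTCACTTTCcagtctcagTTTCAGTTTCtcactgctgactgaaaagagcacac
Ifit3: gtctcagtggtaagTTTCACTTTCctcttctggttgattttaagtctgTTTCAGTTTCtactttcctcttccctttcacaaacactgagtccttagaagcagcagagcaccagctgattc
Rsad2: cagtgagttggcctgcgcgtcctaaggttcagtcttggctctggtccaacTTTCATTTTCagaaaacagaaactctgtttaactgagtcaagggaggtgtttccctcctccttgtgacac
Isg15: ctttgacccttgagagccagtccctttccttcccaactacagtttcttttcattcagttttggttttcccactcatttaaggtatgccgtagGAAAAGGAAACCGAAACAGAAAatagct

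Ifit1 and Ifit3 each held 2 matches, Rsad2 held 1, and Isg15 held 3, of which neighbors overlap. The Ifit1 and Ifit3 matches and the single Rsad2 match read on the strand opposite to transcription, and those of Isg15 read on the same strand. A match is a string of letters in the window and does not show that a protein binds there.

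The share of interferon-positive neutrophils was higher in both PM mice than in both vehicle mice, but the design cannot take this past the threshold. They made up 0.831% of the kept cells of vehicle 1 (95% exact binomial interval 0.657 to 1.04), 0.319% of vehicle 2 (0.207 to 0.471), 1.03% of PM 1 (0.867 to 1.22) and 1.15% of PM 2 (0.947 to 1.39). The intervals cover counting error only. Vehicle 2 was the lowest of the 4 mice, and its interval did not overlap that of vehicle 1. Vehicle mice averaged 0.575 ± 0.362% and PM mice 1.09 ± 0.0874% (SD, n = 2 each), a ratio of 1.90 (two-sided exact permutation test, p = 0.333, the smallest p that 2 mice against 2 allow). Without vehicle 1 the ratio was 3.42, and without vehicle 2 it was 1.31.

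**Figure D1:**
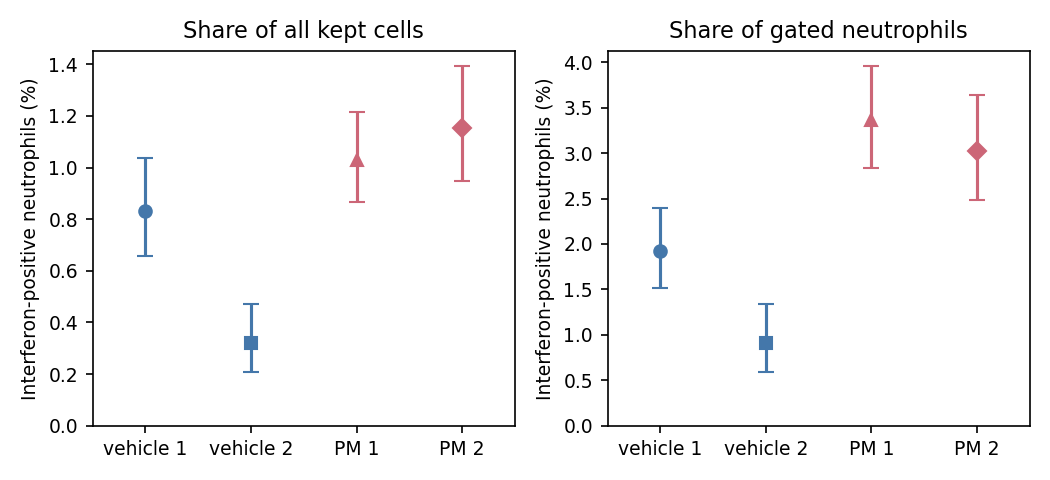
Interferon-positive neutrophils as percent of all kept cells (left) and of neutrophils that passed the other gates (right), 1 point per mouse with its 95% exact binomial interval. Both PM mice lie above both vehicle mice in each panel, and vehicle 2 is the lowest.

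Among the neutrophils that passed the gates other than Ifit, 1.92% were interferon-positive in vehicle 1, 0.908% in vehicle 2, 3.36% in PM 1 and 3.02% in PM 2, a ratio of means of 2.26 (exact permutation p = 0.333). The gated neutrophils themselves were 39.2 ± 5.73% of kept cells with vehicle and 34.4 ± 5.31% with PM. Cells of the PM libraries were shallower, with median UMIs of 3034.5 and 3484 in interferon-positive cells against 3801 and 4049 in the vehicle libraries. When each cell was thinned to 2000 UMIs before gating, the ratio over all cells was 1.52 with PM higher in 3 of 4 pairs of mice (exact permutation p = 0.667), and the ratio over gated neutrophils was 1.94. An Ifit count of at least 3 was not restricted to the neutrophil gates. Outside them it was met by 0.762 ± 0.269% of cells with vehicle and 1.88 ± 0.641% with PM, and among monocytes with Ccr2 and Csf1r UMIs by 2.35 ± 0.256% and 6.75 ± 2.68% (exact permutation p = 0.333 for both).

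Free RNA in the droplets can give neutrophil transcripts to cells that do not make them. Csf3r and S100a8 were therefore counted in B cells, which should lack them. Whether free RNA or another source, such as doublets, brought them there was not tested. At least 1 Csf3r UMI was found in 13.5%, 9.65%, 16.7% and 13.8% of the B cells of vehicle 1, vehicle 2, PM 1 and PM 2, whose median depths were 2752, 2684, 2436 and 2796 UMIs. At least 5 S100a8 UMIs were found in 28.5%, 13.9%, 39.8% and 19.7% of them, and the gates other than Ifit were passed by 3.65%, 2.81%, 6.69% and 4.39%. At least 3 Ifit UMIs were found in 0 of 274, 4 of 995, 21 of 1524 and 3 of 775 B cells, that is 0%, 0.402%, 1.38% and 0.387%, and the count of 0 allows a share of up to 1.09%. Each of these was under the share of 1.92%, 0.908%, 3.36% and 3.02% among gated neutrophils of the same mouse, and whether B cells made these messages themselves was not tested. The full set of gates was passed by 0, 0, 2 and 1 B cells.

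The main comparison asked which other genes differed between interferon-positive and Ifit-zero neutrophils of the same mice, with counts summed per mouse and class. Of 9610 genes tested, 291 were higher (3.03%) and 137 were lower (1.43%) in interferon-positive cells (edgeR quasi-likelihood test with mouse as a block, Benjamini-Hochberg adjusted p under 0.05 and an absolute log2 fold change over 0.5). DESeq2 called 258 higher and 37 lower, so the number of lower calls rests more on the tool. The interferon gene lists hold 165 genes outside the gates, of which 135 passed the filter on low counts, 102 were higher and 1 was lower, with a median log2 fold change of 1.65 beside -0.08 over all genes tested. In 93 of the 135 every interferon-positive value lay above every Ifit-zero value, which is 68.9%, beside 4.21% of all genes tested. Without vehicle 1 the comparison called 170 genes higher and 37 lower, without PM 1 it called 199 and 72, without PM 2 it called 189 and 78, and 83, 91 and 87 genes of the interferon lists were called higher.

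Of the interferon lists, the one that holds the gate genes had the highest median change. Ifit1 and Ifit3 themselves, whose products bind viral RNA, were at 1114, 1046, 1304 and 1145 CPM and at 220, 295, 322 and 302 CPM, values that the gate sets. Ifit3b is a near copy of Ifit3, and reads can be split between them. Its level was 110, 160, 233 and 213 CPM in the interferon-positive cells of vehicle 1, vehicle 2, PM 1 and PM 2, against 1.43, 1.44, 5.14 and 2.99 CPM in Ifit-zero cells, a log2 fold change of 6.01 ± 0.22 (SE). Ifit2, another RNA-binding member, was at 91.3, 136, 66.1 and 68.9 CPM against 1.97, 2.37, 3.43 and 3.94 CPM (log2 fold change 4.81 ± 0.33).

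Rsad2 encodes viperin, an enzyme that makes a chain-terminating nucleotide, and lies beside Cmpk2, which feeds it. Rsad2 was at 1106, 1118, 1780 and 1736 CPM in interferon-positive cells and at 42.6, 34.3, 165 and 155 CPM in Ifit-zero cells, with a log2 fold change of 4.05 ± 0.16 and an edgeR adjusted p of 1.1e-128. With 4 mice, the size of so small a p rests on the model. Over the 14 alternatives the adjusted p (edgeR or DESeq2) ran as high as 0.036. Both classes were higher in the PM mice, and the classes did not overlap. Cmpk2 had a log2 fold change of 2.28 ± 0.15. All 6 tested genes of the Ifit and Rsad2 list were higher, with a median log2 fold change of 4.43.

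Isg15 is a ubiquitin-like protein that is joined to other proteins. It was at 446, 383, 449 and 353 CPM in interferon-positive cells and at 20.1, 18.7, 32.3 and 27.1 CPM in Ifit-zero cells, a log2 fold change of 4.00 ± 0.16 (edgeR adjusted p = 1.3e-138). For Isg15 the adjusted p (edgeR or DESeq2) ran as high as 2.4e-09 over the 14 alternatives. The lowest interferon-positive value was far above the highest Ifit-zero value, and vehicle and PM mice were interleaved within the interferon-positive cells. All 7 genes of the Isg15 conjugation list were higher. They included Herc6, the ligase of this pathway in mice (3.97 ± 0.19), Usp18, the protease that removes Isg15 and also damps the receptor (3.80 ± 0.19), and Trim25 (1.00 ± 0.16).

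**Figure D2:**
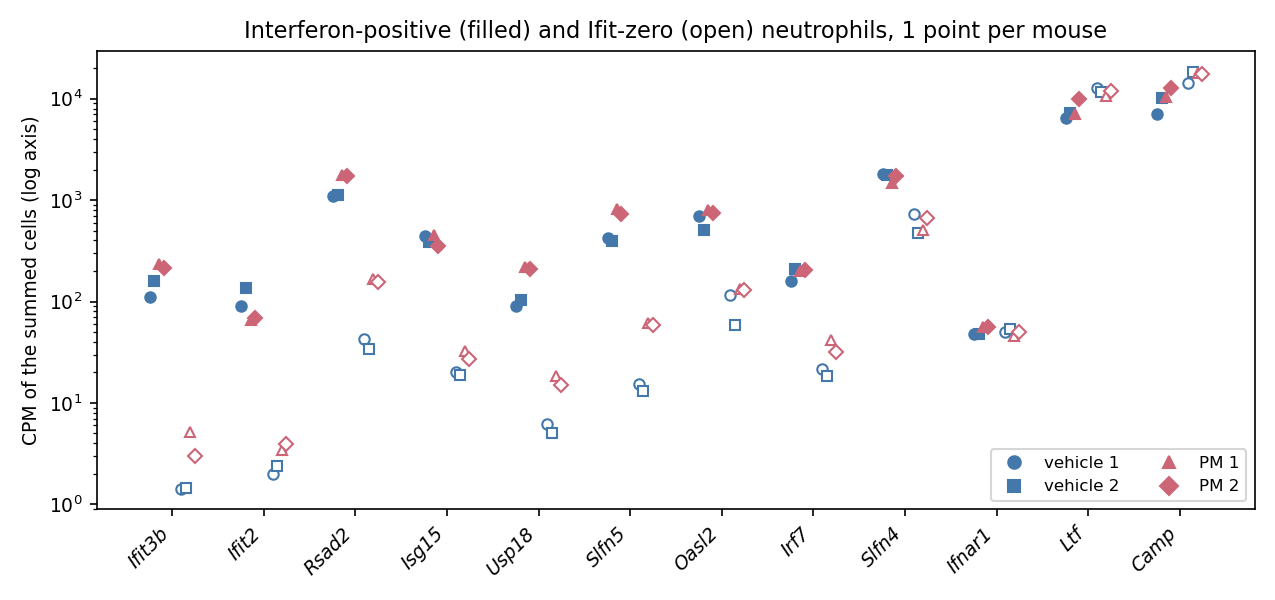
CPM (log axis) of summed interferon-positive (filled) and Ifit-zero (open) neutrophils for 12 genes, 1 point per mouse. The classes do not overlap for the interferon-stimulated genes, overlap for Ifnar1, and are reversed in order for Ltf and Camp.

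Many, but not all, of the tested RNA-sensing genes were higher too. Of the 8 tested genes of the oligoadenylate synthetase list, whose products trigger the nuclease RNase L on double-stranded RNA, 6 were higher (median log2 fold change 2.09). Examples are Oasl1 at 3.87 ± 0.18, Oasl2 at 2.62 ± 0.15, Oas2 at 2.003 ± 0.154 and Oas3 at 1.70 ± 0.15. Of 10 nucleic acid sensors, 6 were higher (median 1.67), among them Zbp1 (2.48 ± 0.17), the RNA helicases Ifih1 (2.15 ± 0.24) and Ddx58 (1.96 ± 0.15), and the RNA editor Adar (1.13 ± 0.17).

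Of 13 genes of the Irf, Stat and Jak list, which carry the signal from the receptor to the nucleus, 7 were higher and none lower (median 0.76). Irf7, which amplifies interferon production, was at 158, 208, 202 and 205 CPM in interferon-positive cells and at 21.6, 18.3, 41.6 and 31.8 CPM in Ifit-zero cells, a log2 fold change of 2.69 ± 0.16. The classes did not overlap. Irf2 was higher as well (0.76 ± 0.15) and lost its call without vehicle 1.

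None of the 6 tested interferon receptor genes passed the edgeR test, and their median log2 fold change was 0.15. Ifnar1 was at 48.3, 47.9, 56.3 and 55.6 CPM in interferon-positive cells and at 50.1, 54.1, 45.8 and 50.4 CPM in Ifit-zero cells, so the classes overlapped (0.08 ± 0.20, edgeR adjusted p = 0.94). The values were 0.23 ± 0.17 for Ifnar2, 0.31 ± 0.17 for Ifngr1 and 0.26 ± 0.16 for Ifngr2. None of 21 interferon ligand genes had a UMI in interferon-positive neutrophils. Over all kept cells, Ifng, the interferon of T and natural killer cells, had 115, 58, 108 and 114 UMIs in vehicle 1, vehicle 2, PM 1 and PM 2. Ifnz had 1, 2, 4 and 5 UMIs. Ifnb1 and Ifnab each had 1 UMI, in vehicle 1, and Ifnk had 1, in PM 1. The other ligand genes had none.

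Large GTPases, DNA-binding proteins and Schlafen genes formed the next group. Of 10 tested guanylate-binding and immunity-related GTPases, which attack vacuoles that shelter pathogens, 8 were higher (median 2.81), including Irgm1 (2.91 ± 0.17), Gbp2 (2.89 ± 0.17), Gbp7 (2.82 ± 0.15) and Irgm2 (2.32 ± 0.17). Gbp2 was uneven across mice, at 384, 47.9, 111 and 151 CPM in interferon-positive cells against 44.4, 15.2, 18.4 and 13.9 CPM, and lost its call without the mouse block. Of 14 tested genes of the Ifi200 and related list, 10 were higher (median 2.10), with Ifi204 at 3.39 ± 0.15. That list also holds Ifi47, which encodes an immunity-related GTPase and not a DNA-binding protein (4.19 ± 0.21). All 6 tested Schlafen genes were higher (median 2.10). Slfn5 was at 427, 399, 808 and 723 CPM against 15.5, 13.1, 61.7 and 59.0 CPM (4.12 ± 0.16), and Slfn4 at 1815, 1757, 1482 and 1730 CPM against 723, 478, 508 and 661 CPM (1.45 ± 0.15). Members of the Ifi200, Schlafen and Oas families share near-identical stretches, so their single values are uncertain. Gm13822, an unnamed locus outside the lists, was among the largest rises (3.69 ± 0.20).

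Of 20 tested restriction factors, 16 were higher and 1, Ifitm6, was lower (median 1.00). Ifitm3, which blocks viral fusion, had a log2 fold change of 0.82 ± 0.15, its relative Ifitm1 0.77 ± 0.15 and Ifitm6 -0.50 ± 0.16. Of 19 genes of the class I antigen presentation list, 14 were higher (median 0.68), with H2-T23 at 1.00 ± 0.15, H2-K1 at 0.60 ± 0.15 and B2m, the invariant light chain, at 0.50 ± 0.15. H2-K1 and B2m each lost their call in 5 of 14 alternatives, Ifitm1 in 3 and Ifitm6 in 11. The feedback and cell death list had 14 of 19 higher (median 1.03), among them the partner proteins Parp14 (2.48 ± 0.16) and Dtx3l (2.13 ± 0.15). Among 3 tested interferon-induced chemokines, Cxcl10 and Ccl2 were higher, but Cxcl10 was at 16.1, 0, 27.2 and 20.01 CPM and Ccl2 at 2.69, 0, 1.94 and 28.9 CPM. Cxcl10 was found in 2 of 77, 0 of 25, 1 of 138 and 4 of 107 cells. In Ifit-zero cells it had 40, 12, 5 and 12 UMIs, so vehicle 2 went the other way. It passed the filter on low counts mainly through the interferon-positive sums, the class where it was high. In vehicle 1, 1 cell held 5 of its 6 UMIs, and in PM 1, 1 cell held all 14. Cxcl10 had a value in only 11 of 14 alternatives, and fell below the filter on low counts without vehicle 1. Ccl2 lost its call in 4 of 11 alternatives.

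**Figure D3:**
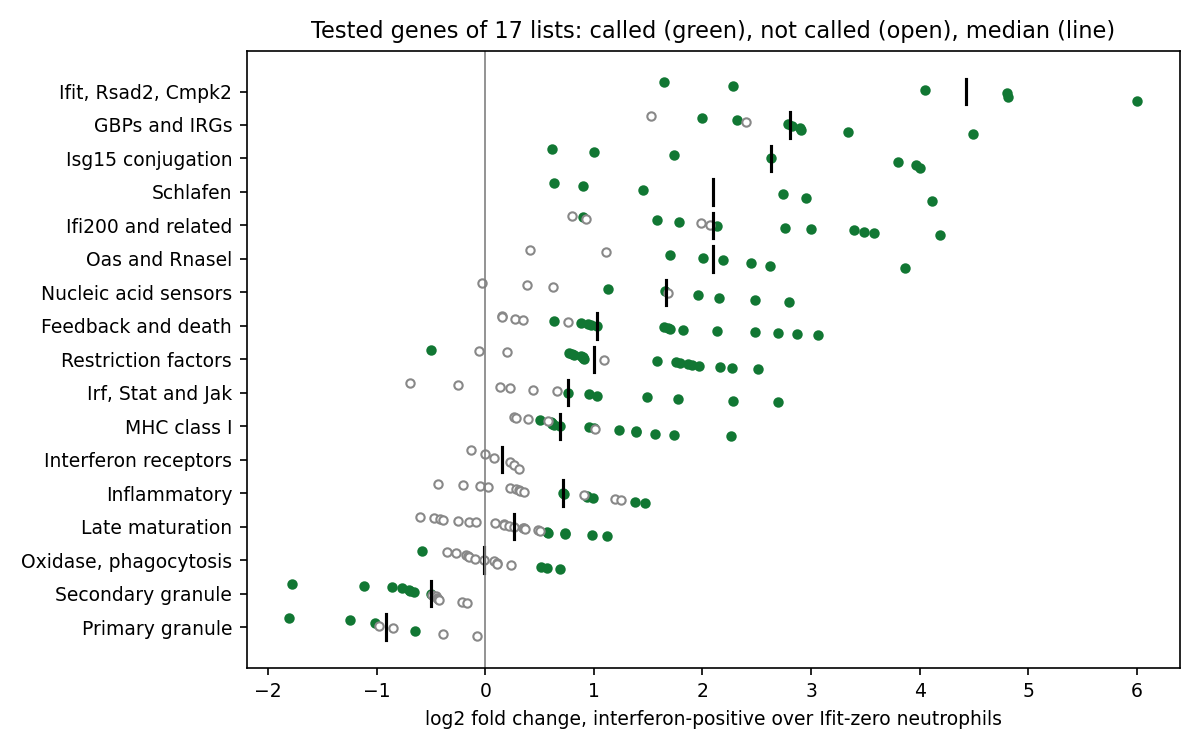
Log2 fold changes of interferon-positive over Ifit-zero neutrophils for the tested genes of 17 lists. Called genes are green, others open, and the black line is the median. The Ifit and Rsad2 list has the highest median at 4.43, the receptors sit near 0, and both granule lists are below 0.

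Secondary granule genes were lower in interferon-positive cells for 8 of 15 genes. Camp, an antimicrobial peptide of the secondary granules, was at 7121, 10237, 10304 and 12617 CPM against 14345, 18492, 17816 and 17357 CPM, so every interferon-positive value lay below every Ifit-zero value (log2 fold change -0.86 ± 0.16). Ltf, lactoferrin, was at 6498, 7274, 7077 and 9887 CPM against 12820, 11527, 10591 and 11836 CPM, again without overlap (-0.70 ± 0.16). None of the 15 was higher (median -0.50), and the 8 included Ngp (-0.76 ± 0.17), Chil3 (-1.12 ± 0.16) and Fcnb (-1.78 ± 0.27). Of 8 primary granule genes, 4 were lower (median -0.92), namely the proteases Elane (-1.25 ± 0.27) and Prtn3 (-0.64 ± 0.20), the peroxidase Mpo (-1.01 ± 0.21) and Nkg7. Of 14 alternatives, Elane lost its call in 6, Mpo in 5 and Prtn3 in 9. An Elane UMI was found in 3.90%, 4.00%, 12.3% and 8.41% of interferon-positive cells and in 5.07%, 3.81%, 12.6% and 7.19% of Ifit-zero cells, against 4.74%, 4.52%, 16.9% and 9.29% of B cells. The B cell share was at or above the Ifit-zero share in 3 of 4 mice for Elane and Prtn3 and in all 4 for Mpo. Whether the neutrophils made these messages themselves was not tested. The primary granule list summed to 156, 160, 297 and 207 CPM against 138, 203, 557 and 434 CPM, lower in 3 of 4 mice, and the part of free RNA in these levels was not tested. The direction of Ltf and Ngp depended on the cells compared, while Chil3 and Fcnb kept direction and call in all 14 alternatives. Against all Csf3r-positive cells without an Ifit UMI, whatever their S100a8, Mki67, Top2a, Csf1r or Ccr2 count, Ltf was at 0.49 and Ngp at 0.16, while Camp was at -0.43 without a call. Without vehicle 1, Camp, Ltf and Ngp kept their direction and lost their calls, as did Ltf and Ngp without the mouse block.

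The share of cells rich in secondary granule messages gave the same order of the classes. With a limit of 5% of a cell's UMIs, chosen after the data were seen, the share was 18.2%, 24.0%, 26.8% and 34.6% of interferon-positive cells against 45.5%, 42.5%, 48.5% and 52.7% of Ifit-zero cells. Every mouse had the lower share in its interferon-positive cells. Of the late maturation genes, Cxcr2, the receptor that lets neutrophils leave the marrow, was at 1697, 1126, 1430 and 1474 CPM against 1231, 1034, 936 and 1096 CPM, higher in 4 of 4 mice without passing the test (0.35 ± 0.15, edgeR adjusted p = 0.22). Of 23 tested late maturation genes, 6 were higher and none lower (median 0.27), the example being Wfdc17 (0.98 ± 0.15), which lost its call without the mouse block.

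Inflammatory genes rose in part. Il1b, which encodes a fever-causing cytokine, was at 1222, 958, 833 and 1716 CPM against 507, 824, 377 and 710 CPM (0.94 ± 0.15), and Cxcl2, a neutrophil attractant, had a log2 fold change of 0.93 ± 0.15. In all, 7 of 19 inflammatory genes were higher and none lower (median 0.71). The immediate early and stress list, whose genes also respond to tissue handling, moved with them, with 5 of 15 higher (Egr1, Fosb, Fos, Dusp1 and Junb, median 0.42). For Fosb, 1 interferon-positive cell held 18 of 24 UMIs in vehicle 1 and 1 held 17 of 20 in vehicle 2. In PM 1 and PM 2 Fosb had 18 of 514749 and 14 of 449802 UMIs in interferon-positive cells. The Ifit-zero cells of these mice had 498 of 15178593 and 421 of 14709103. Dusp1 had a log2 fold change of 0.76 ± 0.15 and Junb 0.69 ± 0.15. Il1b, Cxcl2, Dusp1 and Junb lost their calls without the mouse block, Dusp1 and Junb also without vehicle 1, and Junb without PM 2. The stress list summed to 6987, 7394, 6024 and 8737 CPM in interferon-positive cells against 4060, 4828, 4095 and 6040 CPM, and its part in the inflammatory result was not tested. Of 15 oxidase and phagocytosis genes, Tlr4, Tlr2 and Fcgr4 were higher and Cybb, the membrane subunit of the oxidase, was lower (-0.58 ± 0.15), a call lost in 3 of 14 alternatives. None of the 9 tested histone deacetylase genes passed the edgeR test (median 0.15).

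The genes that fell the most were led by messages of other cells. Igha (-3.76 ± 0.20), Igkc (-3.28 ± 0.18) and Jchain (-3.05 ± 0.22), all antibody genes of plasma cells, were lower in interferon-positive cells. The highest Ifit-zero cell of vehicle 1, vehicle 2, PM 1 and PM 2 held 36.5%, 77.0%, 18.5% and 28.8% of the Igkc UMIs. For Jchain it held 67.1%, 81.3%, 28.4% and 29.4%. With the highest cell set to the second highest, Igkc and Jchain kept their calls and Igha lost its call. In the Ifit-zero cells of vehicle 1, 1 cell held 1933 of the 2880 Jchain UMIs and 1 cell held 9646 of the 26457 Igkc UMIs. Orm1, an acute phase protein, was at 8.06, 0, 3.89 and 2.22 CPM against 59.9, 56.7, 22.4 and 25.7 CPM (-3.20 ± 0.43). Gys1, the muscle-type glycogen synthase (-1.32 ± 0.28), Zmpste24, the lamin protease (-1.17 ± 0.17), Elovl7, a fatty acid elongase (-1.14 ± 0.29), Manea, a mannosidase (-1.09 ± 0.31), and Mrpl24, a mitochondrial ribosomal protein (-1.07 ± 0.32), completed the largest falls. Elovl7 and Mrpl24 lost their call in 6 of 14 alternatives each, Manea in 5, Zmpste24 in 2, and Gys1, Igha, Igkc, Jchain and Orm1 in 1 each.

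Markers of other cells differed between the classes in both directions. The B cell list summed to 145, 160, 721 and 454 CPM in interferon-positive cells against 1391, 707, 2999 and 1443 CPM, with Igkc its most abundant gene and 1 of 9 genes lower. The plasma cell list summed to 148, 144, 239 and 118 CPM against 1265, 791, 2087 and 1631 CPM, with 3 of 5 tested lower (Igha, Jchain and Ighg2b), and Sdc1, Tnfrsf17 and Derl3 had no UMI in interferon-positive cells. The monocyte and macrophage list summed to 1767, 1190, 1743 and 1747 CPM against 1262, 1128, 1595 and 1552 CPM. Its most abundant gene was Ly6c2, and 1 of 11 tested genes, the protease gene Ctss, was higher (2.16 ± 0.20), with C1qb, Ms4a7 and Ace at 0. Among erythroid genes Car1 was higher and 3 hemoglobin genes were lower. No gene of the T and natural killer, dendritic, basophil and eosinophil, megakaryocyte, or progenitor and stromal lists was called. The part of these messages in the results was not tested.

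Rsad2 was found in most interferon-positive cells and in fewer of the others. At least 1 Rsad2 UMI was present in 87.0%, 76.0%, 89.9% and 87.9% of the interferon-positive cells of vehicle 1, vehicle 2, PM 1 and PM 2, in 13.1%, 10.7%, 34.1% and 29.3% of Ifit-zero cells, and in 1.82%, 1.31%, 11.1% and 6.32% of B cells. In cells thinned to 2000 UMIs the shares were 74.0%, 66.7%, 81.2% and 67.4%, then 7.29%, 5.85%, 22.1% and 18.8%, then 0.948%, 0.872%, 6.04% and 2.95%. The order of the classes was the same in each mouse at equal depth. Isg15 was found in 62.3%, 60.0%, 58.7% and 53.3% of interferon-positive cells and in 8.97%, 8.11%, 10.8% and 9.05% of Ifit-zero cells.

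The threshold of 3 Ifit UMIs did not mark a step. In cells with 2 Ifit UMIs, just outside the gate, Rsad2 was at 398, 356, 675 and 905 CPM in vehicle 1, vehicle 2, PM 1 and PM 2, and in cells with 3, just inside, it was at 629, 144, 1110 and 755 CPM. The value of 144 came from 6 cells. In cells with 6 or more Ifit UMIs Rsad2 was at 1645, 2028, 2854 and 3510 CPM, above every lower bin in each mouse. Isg15 went from 112, 141, 228 and 173 CPM at 2 Ifit UMIs to 638, 639, 720 and 687 CPM at 6 or more. Camp, in contrast, was at 4692, 13424, 7229 and 6639 CPM at 6 or more, with vehicle 2 apart on 8 cells.

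**Figure D4:**
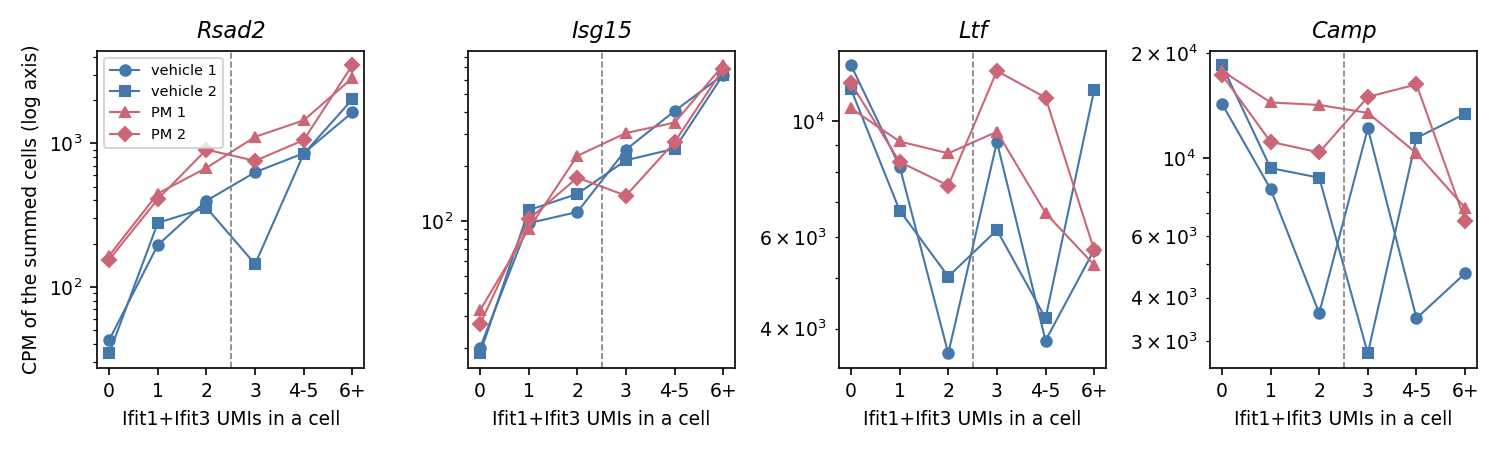
CPM (log axes) of Rsad2, Isg15, Ltf and Camp in gated neutrophils summed by their number of Ifit1 and Ifit3 UMIs, 1 line per mouse, with the dashed line between 2 and 3 UMIs. Rsad2 and Isg15 are highest at 6 or more UMIs in each mouse, while Ltf and Camp vary without a common order above 0.

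The 347 cells varied widely among themselves. Their Ifit1 and Ifit3 sum ran from 3 to 37 UMIs with a median of 4, and genes of the interferon lists took 1.11% to 18.8% of a cell's UMIs with a median of 3.61%. Secondary granule genes took 0.0367% to 18.1% with a median of 2.14%. The 2 shares ran opposite to each other, with Spearman correlations over cells of -0.60, -0.34, -0.71 and -0.68 in vehicle 1 (77 cells), vehicle 2 (25), PM 1 (138) and PM 2 (107). Both are shares of the same UMI total, and the interferon share also ran opposite to that total (-0.61, -0.64, -0.69 and -0.69), so cells of higher depth had lower interferon shares. These correlations are over cells of 1 library and are given as a description.

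PM against vehicle within the interferon-positive neutrophils gave few calls. Of 3957 genes tested, 18 were higher (0.455%) and 3 were lower (0.0758%) with PM (edgeR, 2 mice against 2), and DESeq2 called 1 higher and 0 lower (60 and 53 by unadjusted p, limit 0.05). The counts changed when a mouse was left out or single cells were capped. Leaving out a mouse leaves 1 library in its group, which is assumed to vary like those of the other group. Without vehicle 1 there were 32 higher and 62 lower, without vehicle 2 there were 44 and 22, without PM 1 there were 16 and 7, and without PM 2 there were 22 and 0. With the highest cell of each gene set to the second highest, 3 were higher and 0 lower (199 and 129 at an unadjusted p under 0.05), the 3 being Olfm4, Fxyd7 and Ccl9. Cells with at least 5 Ifit UMIs gave 0 and 0 (114 and 111).

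Most interferon-stimulated genes did not pass the test in that comparison. Of 102 tested genes of the interferon lists, 2 were higher and none lower, with a median log2 fold change of 0.18 beside 0.00 over all genes. Usp18 was at 91.3 and 104 CPM with vehicle and at 221 and 211 CPM with PM, so the groups did not overlap (1.27 ± 0.30, edgeR adjusted p = 0.039). Ifi27l2a, a small mitochondrial membrane protein that was picked out after its values were seen, was at 524 and 735 CPM with vehicle and at 1257 and 1218 CPM with PM (1.11 ± 0.26, edgeR adjusted p = 0.036). Usp18 lost its call in 7 of 14 alternatives (DESeq2, thinning, a gate of 5 Ifit UMIs, capping, and without vehicle 1, PM 1 or PM 2), and Ifi27l2a lost it in these and with no filter on low counts, 8 of 14. Over the 14 alternatives their log2 fold changes ran from 1.20 to 1.68 and from 0.90 to 1.73.

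Rsad2 stood at 1106 and 1118 CPM with vehicle and at 1780 and 1736 CPM with PM, without overlap, and missed the threshold (0.77 ± 0.25, edgeR adjusted p = 0.21). Ifit3b was at 0.91 ± 0.30, Cmpk2 at 0.47 ± 0.26, Oasl2 at 0.44 ± 0.26 and Irf7 at 0.30 ± 0.28. Isg15 was at 446 and 383 CPM against 449 and 353 CPM (0.04 ± 0.26), Slfn4 at -0.05 ± 0.25 and Ifit2 at -0.55 ± 0.33. Camp and Ltf were at 0.51 ± 0.27 and 0.40 ± 0.27. None of these passed, which does not show that the groups were alike.

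The largest PM differences lay outside the interferon lists. Olfm4, a matrix glycoprotein carried in the granules of a subset of neutrophils, was at 61.8 and 79.9 CPM with vehicle and at 464 and 627 CPM with PM (3.09 ± 0.32, edgeR adjusted p = 2e-07). In vehicle 1 it was found in 4 of 77 cells, with 19 of its 23 UMIs in 1 cell, in vehicle 2 in 2 of 25, in PM 1 in 20 of 138 and in PM 2 in 11 of 107. Fxyd7, a regulator of the sodium pump, had no UMI in the vehicle cells and 61 in the PM cells. It thus passed the filter on low counts only through the PM mice. Its PM level was at least 10.5-fold higher when the floor of 3 UMIs is taken over the vehicle group. The chemokine gene Ccl9 had 2 UMIs against 71, a ratio per UMI of 18.3 (95% counting interval 4.89 to 154), and Gngt2, a G protein subunit, had 2 against 61 (15.7, interval 4.17 to 133). Ccl9 and Gngt2 also passed that filter only through the PM mice. Their intervals cover counting error only, not the spread between mice. Calls were lost in 1 of 14 alternatives for Olfm4, 2 of 13 for Fxyd7, 1 of 12 for Ccl9 and 4 of 12 for Gngt2. In Ifit-zero cells Fxyd7 was at 0.0986 and 0.431 CPM with vehicle and at 22.5 and 21.8 CPM with PM. Gngt2 was there at 5.62 and 12.8 CPM against 39.3 and 34.3 CPM.

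Other higher genes were the chemokine gene Ccl3, at 24.2 and 7.99 CPM against 87.4 and 100 CPM (2.31 ± 0.45), Ear2, an eosinophil-type ribonuclease (2.82 ± 0.58), Siglecg, an inhibitory lectin (2.52 ± 0.61), Cstdc5, a stefin-like protease inhibitor (2.16 ± 0.44), Mpzl3 (1.84 ± 0.35) and Gm12840 (3.19 ± 0.62). On their vehicle counts alone, Ccl3, Ear2, Siglecg, Cstdc5 and Gm12840 would not have passed the filter on low counts. Their UMIs in vehicle 1 and vehicle 2 were 9 and 1, 1 and 5, 2 and 3, 10 and 1, and 4 and 0. In Ifit-zero cells both PM values also lay above both vehicle values for Ccl3, Ear2, Siglecg and Mpzl3. Ccl3 was there at 6.56 and 17.7 CPM against 46.0 and 79.2 CPM, and Ear2 at 26.9 and 49.0 CPM against 101 and 112 CPM. Cstdc5 was lower with PM there, at 84.3 and 71.1 CPM against 68.4 and 34.5 CPM, and Gm12840 overlapped. The 3 lower genes were Ccrl2, a chemoattractant-binding receptor (-2.24 ± 0.51), Ewsr1, an RNA-binding protein (-1.54 ± 0.37), and Eef1b2, a translation elongation factor (-1.32 ± 0.31). Of 14 alternatives Eef1b2 lost its call in 8 and Ewsr1 in 7, and the other called genes named beside them lost theirs in 3 to 5 of 9 to 14. Of 9 B cell genes, 3 passed the filter on low counts, and these, Ebf1, Igkc (1.81 ± 0.35) and Ighm (1.78 ± 0.33), were called and were picked out after their values were seen. Ebf1 passed the filter only through the PM mice, since it had 0 UMIs with vehicle and 33 with PM, at least 5.68-fold higher by the same floor, Ighm lost its call when doublets were left out, and Ebf1 was then below the filter on low counts. The B cell list summed to 145 and 160 CPM with vehicle and to 721 and 454 CPM with PM, the dendritic cell list to 67.1 and 15.97 CPM and to 356 and 93.4 CPM, and the erythroid list to 145 and 303 CPM and to 192 and 796 CPM. None of the 4 tested erythroid genes was called, all with log2 fold changes above 0 (median 2.62), and 1 cell of PM 2 held 95 of its 113 Hbb-bs UMIs. Cd74, the most abundant dendritic list gene, was at 2.72 ± 1.22 without a call (edgeR adjusted p = 0.61). The part of these lists in the other PM results was not tested.

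The Ifit-zero neutrophils of the same mice gave more calls for PM against vehicle, on many more cells. Of 11118 genes tested, 569 were higher (5.12%) and 239 lower (2.15%) with PM (edgeR), and of 137 tested interferon genes 22 were higher and 2 lower (median 0.25 beside 0.02 over all genes). Rsad2 was at 42.6 and 34.3 CPM with vehicle and at 165 and 155 CPM with PM (1.90 ± 0.16). Slfn5 had a log2 fold change of 1.92 ± 0.15, Usp18 1.42 ± 0.21 and Irf7 0.73 ± 0.18. Ifit3b was called at 1.36 ± 0.36 (edgeR adjusted p = 0.0499), and Isg15 was at 0.47 ± 0.15 without a call. Ifit3b lost its call in 6 of 13 alternatives and Usp18 in 2. Ccl9 was higher (2.39 ± 0.15). The primary granule genes Elane (2.38 ± 0.34) and Mpo (1.97 ± 0.26) were called, with 6 of 8 of that list, but an Elane UMI was found in 4.74% and 4.52% of B cells in vehicle mice against 16.9% and 9.29% in PM mice, and a Mpo UMI in 12.4% and 10.4% against 32.3% and 22.5%. Elane lost its call without PM 1 and with the replicate block, Mpo lost it without PM 1, and Irf7 lost it in 4 of 13 alternatives. A Rsad2 UMI was found in 1.82% and 1.31% of B cells in vehicle mice against 11.1% and 6.32% in PM mice, and 5 of 7 erythroid genes were higher with PM in Ifit-zero cells, and the part of free RNA was not tested. Without vehicle 1 the counts were 297 higher and 94 lower, without vehicle 2 they were 934 and 605, without PM 1 they were 106 and 26, and without PM 2 they were 228 and 55.

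**Figure D5:**
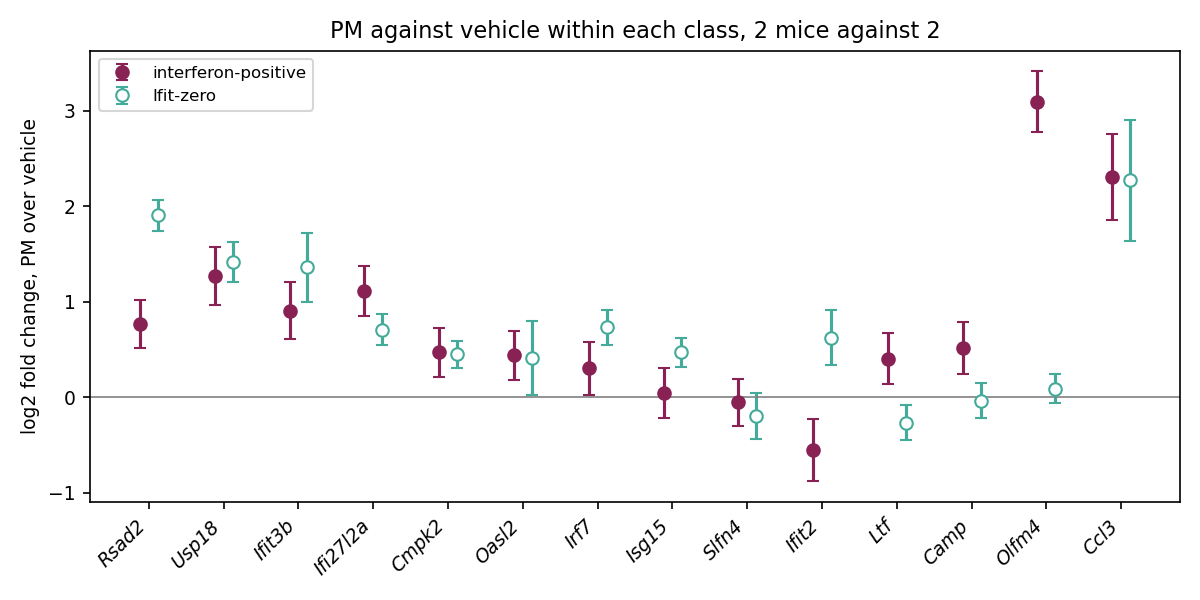
Log2 fold change of PM over vehicle (± SE, 2 mice against 2) for 14 genes, in interferon-positive (filled) and Ifit-zero (open) neutrophils. Rsad2 stands at 0.77 and 1.90, Usp18 at 1.27 and 1.42, and Olfm4 at 3.09 and 0.09 in the 2 classes.

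Whether the PM difference itself differed between the classes was tested directly. Of 10692 genes, 9 had a larger log2 difference in interferon-positive cells (0.0842%) and 48 a smaller one (0.449%). Without the mouse block the counts were 1 and 0, with DESeq2 3 and 18, after thinning 6 and 2, and at 5 Ifit UMIs 5 and 5. Within the interferon lists 0 of 140 were larger and 3 were smaller, namely Rsad2 (-1.13 ± 0.21, edgeR adjusted p = 0.00011), Slfn5 (-0.93 ± 0.23) and Ifi203 (-2.95 ± 0.78). For Rsad2 the alternatives gave -1.24 to -0.99, and the call was lost without PM 1, without PM 2 and without the mouse block (edgeR adjusted p = 0.72). Slfn5 lost its call in 6 of 13 alternatives and Ifi203 in 9 of 12, and Ifi203 stood at 6.78 after thinning. Interferon-positive cells had the higher Rsad2 level in each mouse and the smaller PM difference. Usp18 (-0.11 ± 0.37) and Isg15 (-0.44 ± 0.22) were not called. Olfm4 had the larger PM difference in interferon-positive cells (2.98 ± 0.30). Its vehicle values in interferon-positive cells, 61.8 and 79.9 CPM, were below the 440, 493, 519 and 575 CPM of the Ifit-zero cells of vehicle 1, vehicle 2, PM 1 and PM 2. The counts changed with the mice and cells included, and a lone library was again assumed to vary like the other group. Without vehicle 1 they were 193 larger and 83 smaller, without vehicle 2 they were 20 and 22, without PM 1 they were 3 and 1, without PM 2 they were 5 and 6, and with the highest cell capped they were 7 and 7.

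The promoter motif shown above was counted over whole RefSeq windows of 300 bases, from 250 before to 50 after each start. GAAANNGAAA was found on either strand in 3.44% of all 32851 promoters. Among genes tested in the class comparison with a promoter in the table, 316 of 7590 held it (4.16%), against 70 of 235 genes that were higher in interferon-positive cells (29.8%) and 3 of 109 that were lower (2.75%). Of the tested interferon list genes, 49 of 111 held it (44.1%), and of the higher genes outside those lists 27 of 149 (18.1%). Slfn5 held a match 155 bases before its start, and Ifit3b held 2, at 188 and 154 bases. The counts describe letters in these windows, and genes without a match may carry the element elsewhere.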

How the data were processed

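The authors lysed red cells, made 3' droplet libraries and ran Cell Ranger (6.0.1 in the file headers). The deposited values are raw UMI counts for each gene in each barcode, not normalized. The labels name GRCm39 and the paper's methods GRCm38. Of 32285 gene IDs, 32235 are in the GRCm38 annotation, so GRCm38 coordinates are given. Cells were kept from 300 genes upward and up to 20% mitochondrial UMIs. Interferon-positive and Ifit-zero neutrophils were gated on raw UMIs and summed per mouse. B cells had at least 2 Cd79a and 1 Cd79b UMIs.

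Sums were tested with edgeR 4.0.16 (R 4.3.3; TMM, filterByExpr, robust quasi-likelihood) with mouse as a block between classes and without a block between treatments. The SE of a log2 fold change is its size divided by the square root of F. The 8 gate genes stayed in library sizes and left the tests. Shares were compared by exact permutation, and intervals are Clopper-Pearson. Nothing in the labels says that the numbers of mice mark shared days, and the deviations of same-numbered mice gave r = -0.0249 in interferon-positive and -0.249 in Ifit-zero cells, so no pairing was assumed between treatments. DESeq2 1.42.0, other filters, thinning to 2000 UMIs, a doublet score of 0.3 (scanpy 1.11.5, 1.67% to 6.10% of cells) and leaving out each mouse were tried.

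Members, lists and tests were chosen with earlier results of these data known. Genes named are, per list, up to 4 of the highest mean CPM, per comparison the 10 largest rises and falls of at least 20 CPM in the same direction in 4 of 4 pairs, a fixed set of interferon and neutrophil genes, and, where a count is small, its members after their values were seen. On simulated data, 100 well-counted genes were changed by 1 on the log2 scale. The class test recovered 62.0% of these 100 (9627 genes tested) and the PM test in interferon-positive cells 12.0% (3930 genes tested). The simulation used 1 fixed dispersion, not estimated from these data, and no difference between mice. Its shares thus do not apply to genes with few UMIs or with UMIs held by few cells. Mx1, Mx2 and some other list genes were not analysed here, 1 list gene is counted but not reported by name, and interferon-positive monocytes were not tested because vehicle 2 had 9 cells, under the minimum of 10.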

Additional observations from a re-analysis of the deposited data

Results flagged for a closer look

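In the interaction test as reported, the PM difference differed between interferon-positive and Ifit-zero neutrophils for 20 named genes (edgeR, 2 mice against 2). Without the mouse block 1 of the 57 interaction calls stood. The PM difference was larger in interferon-positive cells for Olfm4 (log2 difference 2.98), for the stefin genes Cstdc5 (2.97), Stfa3 (2.70), Stfa1 (2.55) and Stfa2l1 (0.78), for Gm12840 (2.82) and for Klf6 (0.82). Of 13 alternatives, Klf6 lost its call in 11, Stfa2l1 in 10, Gm12840 in 7, Stfa3 in 6, Stfa1 in 3, Cstdc5 in 1 and Olfm4 in none. The 4 stefin genes lie in a family of near-identical copies, so the counts of each are uncertain. In vehicle 1, all 10 Cstdc5 UMIs and all 10 Stfa1 UMIs of interferon-positive cells were in 1 cell each. Cstdc5 was found in 4 of 138 cells in PM 1, where 1 cell held 21 of 45 UMIs, and in 4 of 107 cells in PM 2, where 1 held 36 of 44. Stfa3 was found in 7 of 138 cells in PM 1, where 1 held 20 of 44 UMIs, and in 2 of 107 cells in PM 2, where 1 held 6 of 8.

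It was smaller in interferon-positive cells for Sox4 (-4.03), Cdk6 (-3.08) and Myb (-1.84), which mark immature cells, for Fosb (-2.48) and Crip1 (-2.05), for the translation genes Rpl3 (-1.97), Eef1g (-1.92), Rpl12 (-1.91), Rps18 (-1.78) and Gas5 (-1.65), and for the interferon-stimulated genes Ifi203 (-2.95), Rsad2 (-1.13) and Slfn5 (-0.93). Calls were lost in 9 of 13 alternatives for Crip1, in 8 for Myb, in 6 for Gas5 and Slfn5, in 5 for Fosb, Rpl3, Eef1g and Rps18, in 3 for Cdk6, Rpl12 and Rsad2, in 6 of 12 for Sox4 and in 9 of 12 for Ifi203. One interferon-positive cell in vehicle 1 held all 10 Sox4 UMIs of that library, 1 held 21 of 22 Cdk6 UMIs, 1 held 18 of 24 Fosb UMIs and 1 held 31 of 41 Rpl3 UMIs. In vehicle 2, 1 cell held all 13 Sox4 UMIs, 1 held 24 of 25 Cdk6 UMIs and 1 held 21 of 24 Myb UMIs. For Rsad2, the highest cell held 23 of 412 UMIs in vehicle 1 and 44 of 140 in vehicle 2. It held 48 of 916 in PM 1 and 57 of 781 in PM 2.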

How the results depend on the processing

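Between interferon-positive and Ifit-zero neutrophils (291 genes higher, 137 lower), thinning to 2000 UMIs gave 190 higher, DESeq2 37 lower, and a gate of at least 5 Ifit UMIs 84 lower. Without the mouse block (no replicate block) the counts were 146 and 18. Against all Csf3r-positive Ifit-zero cells they were 1722 and 3673, and Ifitm6 (0.97), Ltf (0.49), Ngp (0.16), Elovl7 (0.33), Cybb (0.30), Ctss (-0.25) and Ifngr1 (-0.47) changed sign. Leaving out each mouse gave 170 to 317 higher and 37 to 151 lower, and Ifnar1 ran from -0.0719 to 0.14. Interferon list genes called higher numbered 81 to 102 over these settings. Of the single-gene values under the alternatives, 818 kept their direction and side of the threshold, 88 lost their call and 4 gained one. In the next 3 comparisons 286, 102 and 170 kept both and 81, 15 and 109 lost their call.

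For PM within interferon-positive cells (18 higher, 3 lower), the counts were 8 lower with RLE normalization, 1 and 0 with DESeq2, 30 and 13 with no filter on low counts, 8 lower with stricter cell limits (500 genes, 10% mitochondrial UMIs), 17 lower without doublets, 3 and 1 after thinning, 0 and 0 at 5 Ifit UMIs, and 3 and 0 with the highest cell capped, an alternative chosen after the data were seen. A replicate block gave 28 and 10, with all 21 reported calls among them. Crossed numbers, also added later, gave 37 and 25 here and 931 and 362 in Ifit-zero cells. Leaving out each mouse gave 16 to 44 higher and 0 to 62 lower. Isg15 was at -0.0202 without doublets, -0.24 after thinning, -0.12 at 5 Ifit UMIs and -0.17 to 0.28 with a mouse left out. Slfn4 was at 0.14 with the stricter cell filter, 0.12 at 5 Ifit UMIs and -0.13 to 0.0327 with a mouse left out. Ltf was at -0.12 at 5 Ifit UMIs.

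For PM within Ifit-zero cells (569 higher, 239 lower), DESeq2 called 348 higher, no filter gave 1247 and 482, thinning 278 and 135, and leaving out each mouse 106 to 934 and 26 to 605. For the difference between classes (9 larger, 48 smaller), DESeq2 gave 3 and 18, thinning 2 smaller, a gate of 5 Ifit UMIs 5 and 5, capping 7 smaller, no replicate block 1 and 0 (285 and 401 at an unadjusted p under 0.05, edgeR), and leaving out each mouse 3 to 193 and 1 to 83. Usp18 was at 0.56 after thinning and -0.16 to 0.0717 with a mouse left out, Cdk6 at 0.21 with capping and Ifi203 at 6.78 after thinning. The share ratio of 1.90 ran from 1.31 to 3.42 with a mouse left out. The causes were not tested. Vehicle 2 had 25 interferon-positive cells and 125233 UMIs, which limits the precision of low genes.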
